A study of Homo sapiens with 14 samples.

Results

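The young LINE-1 (L1) elements described here are the genomic copies named L1HS, L1PA2, L1PA3, L1PA4, L1PA5, L1PA6, L1PA7 or L1PA8 in the deposited count tables of transposable element (TE) integrants. They were chosen by name alone, without use of any read count. This gave 67794 of the 4570939 integrants of the tables. L1HS was named by 1571 integrants, L1PA2 by 4918, L1PA3 by 10703, L1PA4 by 11926, L1PA5 by 11398, L1PA6 by 6051, L1PA7 by 13116 and L1PA8 by 8111. Of all members, 7757 spanned at least 5 kb, close to the full length of an L1, and 60037 were shorter. Gene bodies held 35278 members, and 1350 overlapped an exon.

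L1 elements are retrotransposons that copy themselves through an RNA intermediate. A complete copy carries an internal promoter at its 5′ end, an open reading frame for an RNA-binding protein (ORF1p), a longer frame for an endonuclease and reverse transcriptase (ORF2p), and a 3′ end closed by a poly(A) tract. Most insertions lose their 5′ end, and with it the promoter. L1HS is the human-specific subfamily and the source of the copies that still move in people, while L1PA2 to L1PA8 are successively older primate subfamilies. KRAB zinc finger proteins with their cofactor TRIM28, DNA methylation and the HUSH complex are known to silence L1, and pluripotent stem cells are known to transcribe some young copies.

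The study asked how primate-specific TEs take part in human germ layer formation, and differentiated cells of H9, a human embryonic stem cell (hESC) line. Of its samples, 12 bulk poly(A) RNA libraries were used here. The hESC group held 2 libraries of H9 cells grown in mTSER Plus on matrigel, and its labels name no transgene. The 3 control endoderm libraries came from cells that express dCAS9-KRAB, a catalytically dead Cas9 fused to a repressor domain, without a single guide RNA (sgRNA), after 3 days with Activin (100 ng/ml) and the Wnt agonist CHIR (5 µM on day 1 and 0.5 µM on day 2). The 3 CRISPRi endoderm libraries came from the same protocol with dCAS9-KRAB and an sgRNA, which the study directed at LTR5, the promoter of the HERVK endogenous retrovirus, and not at L1. Foregut, with 2 control and 2 CRISPRi libraries, came from a commercial protocol for pancreatic differentiation. It ran 3 days to endoderm and 3 days to foregut, and no Activin or CHIR dose is given for it. Only the titles make these 4 libraries foregut: their other labels call the controls hESC and the CRISPRi libraries endoderm without sgRNA. The study's methods call RNA-seq replicates biologically independent, and no label says how the cultures were kept apart. In such bulk RNA, a change in the number of cells of a type and a change in RNA per cell cannot be told apart.

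The 5′ ends of the copies show which elements still carry the start of the promoter. The core of the binding site of YY1, a factor known to place L1 transcription starts, was searched as AAGATGGC on both strands in the first 30 bases of every member. The lines below give these 30 bases, from the GRCh37 reference genome and on the element's own strand, for the most-read copy of at least 5 kb of L1PA3, L1PA4 and L1PA5, with the 8 matching bases in capitals.
L1PA3 near HTR1E, plus strand, chr6:87441115-87441144: gccaagatgcccaaataggaacagctccgg
L1PA4 in LINC02021, minus strand, chr3:129885374-129885403: gggggtggagccAAGATGGCcaaacaggaa
L1PA5 near AADAT, plus strand, chr4:171128259-171128288: gttccAAGATGGCcgaataggagtagctcc
The L1PA3 copy near HTR1E lacks an exact match in these bases, and the other 2 shown hold 1 each. Among copies of at least 5 kb the motif was present in 91.5% of L1HS, 87.3% of L1PA2, 74.3% of L1PA3, 67.5% of L1PA4, 64.1% of L1PA5, 60.8% of L1PA6, 52.1% of L1PA7 and 50.2% of L1PA8. Among shorter copies the share lay between 1.47% and 7.34%. A match is a description of the letters and not evidence of binding.

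The median identity to a full-length L1HS copy of the reference genome, here the reference copy, fell with the age of the subfamily, from 98.7% in L1HS of at least 5 kb to 92.9% in L1PA4, 87.8% in L1PA6 and 83.8% in L1PA8. Both open reading frames, of 338 and 1275 residues in the reference copy, were intact in 104 L1HS, 29 L1PA2 and 1 L1PA3.

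Sequence likeness limits where a read can be counted, since the tables hold uniquely mapped reads. Windows of 75 bases that occur at a single place among all members made up 9.93% of the windows in L1HS of at least 5 kb, 25.1% in L1PA2, 42.8% in L1PA3, 61.1% in L1PA4 and 96.0% in L1PA8. Reads of L1HS and L1PA2 can thus be counted over a small part of their sequence only. Even so, long young copies were more often seen than old ones: 57.3% of L1HS and 61.8% of L1PA2 copies of at least 5 kb had a read in some library, against 37.6% of L1PA3 and 15.6% of L1PA8. Among copies under 5 kb the share with a read was 16.5% in L1HS, 9.14% in L1PA2 and 4.74% in L1PA8.

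**Figure D1:**
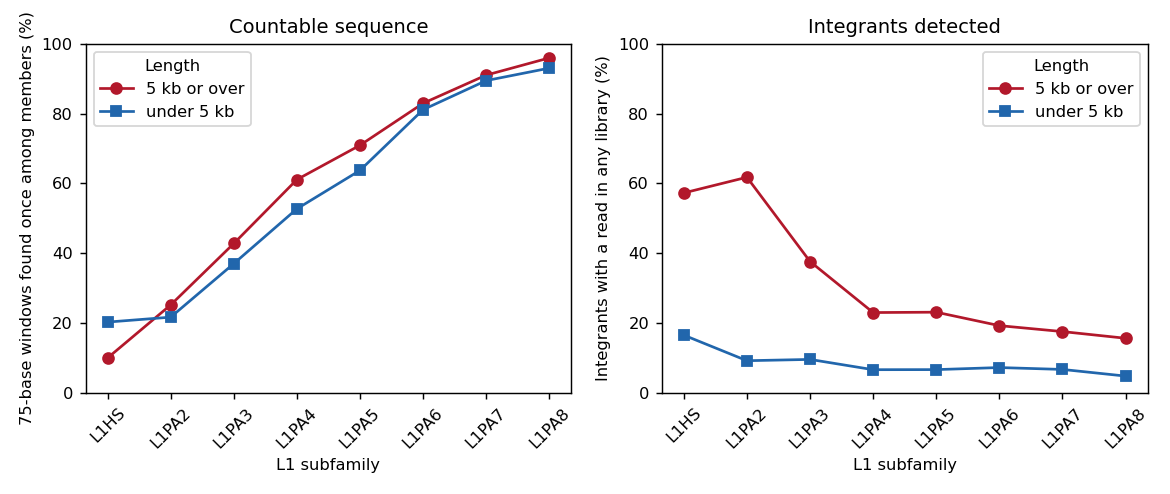
Share of 75-base windows found at a single place among the members (percent) and share of copies with at least 1 read in any of the 12 libraries (percent), by subfamily and length class. The share of single windows rises from 9.93% in long L1HS to 96.0% in long L1PA8, while the share of long copies with a read is highest in L1PA2 (61.8%) and lowest in L1PA8 (15.6%).

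Library depth ranged from 11583063 to 37152434 reads on genes, and members received 3665 to 13732 reads per library, or 1.02% to 2.72% of all TE reads. A count of 0 allows up to 3 counts, that is 0.0807 to 0.259 reads per 1000000 gene reads (RPM) in a library; this and the other intervals cover counting error only. Mitochondrial genes took 8.30% to 34.7% of gene reads. All 7 endoderm markers rose from hESC to control endoderm (edgeR quasi-likelihood test with Benjamini-Hochberg adjustment), from a summed 24.3 to 35.0 counts per 1000000 gene reads (CPM) to 5410 to 6018 CPM, and 4 of 5 mesoderm markers rose as well, from 69.0 to 79.5 CPM to 113 to 222 CPM. Of the 5 hESC markers, SOX2, DPPA4 and ZFP42 fell from hESC to control endoderm, while NANOG was not called and POU5F1 stood higher, at 637 to 842 CPM against 286 and 620 CPM (log2 fold change 0.79, adjusted p = 0.0169, under 2-fold). In control foregut 3 of 6 foregut markers were higher than in control endoderm (SOX9, APOA1 and AFP). AFP had 176 and 5.06 CPM in control foregut but 0.0314 and 0 CPM in CRISPRi foregut, and was called lower there (edgeR, adjusted p = 2.71e-61). From control endoderm to control foregut POU5F1, NANOG, DPPA4 and ZFP42 fell and SOX2 rose, so that SOX2, at 136 to 246 CPM, made up most of the hESC marker sum in the foregut libraries.

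The foregut libraries stood apart in how member reads were spread. In the 8 hESC and endoderm libraries, 710 to 1614 members outside exons had a read, at 2.52 to 4.47 reads per detected member. In the foregut libraries 571 and 530 (control) and 683 and 206 (CRISPRi) were detected, at 16.1 to 28.0 reads each. The same held for all TE integrants, at 4.32 to 7.27 reads per detected integrant in the 8 libraries against 20.6 to 42.6 in foregut. Comparisons that use foregut libraries carry this difference, and its part in them was not tested.

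Levels are given in RPM over members outside exons. All members together had 133.1 and 198.1 RPM in hESC. In control endoderm they had 215.9, 236.9 and 235.4 RPM, and in CRISPRi endoderm 190.4, 333.3 and 379.0 RPM. Control foregut had 317.0 and 229.2 RPM, and CRISPRi foregut 386.8 and 277.3 RPM. The hESC libraries were the lowest but for CRISPRi endoderm replicate 1, which lay below hESC replicate 2. Per megabase of sequence, the order of the subfamilies differed between groups. The highest mean was that of L1PA6 in hESC (2.48 RPM per megabase, beside 2.47 for L1PA2), of L1PA3 in control and CRISPRi endoderm (3.58 and 4.92) and of L1HS in control and CRISPRi foregut (4.52 and 5.16). L1PA3 of at least 5 kb stood above its shorter copies in endoderm, at 4.31 against 2.86 RPM per megabase in controls and 6.58 against 3.26 with CRISPRi. It stood below them in hESC (1.30 against 1.92), control foregut (0.994 against 2.33) and CRISPRi foregut (1.57 against 1.81). These orders are given as values and were not tested.

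The first comparison, control endoderm against hESC, asks which young L1 elements differ between these groups. Control endoderm expressed dCAS9-KRAB and the hESC labels name no transgene, so differentiation and the transgene cannot be told apart here. L1PA3 and L1PA4 rose, and the other 6 subfamilies did not pass the test. The summed level over all members was 229 ± 11.7 RPM (SD, n = 3) in endoderm and 166 ± 46.0 RPM (SD, n = 2) in hESC. That is 1.39-fold higher, and the groups did not overlap, but the 2-sided exact permutation test gave p = 0.1, the smallest p this design allows. With mitochondrial genes left out of the library size the groups overlapped, at 262 and 209 RPM (log2 ratio 0.33, exact permutation p = 0.3), where mitochondrial genes took 25.5% and 16.9% of gene reads in hESC and 8.30% to 14.4% in control endoderm. Leaving out the 10 most-read members brought the log2 ratio from 0.47 to 0.07 (exact permutation p = 0.8). Where the elements lay outside gene bodies the log2 ratio was 1.06, at 102 against 48.9 RPM (exact permutation p = 0.1). In that setting the median log2 fold change over all TE names also moved, from -0.29 to 0.25 (edgeR). Of 2 copies between genes described below, an L1PA3 copy had 27.8 RPM in endoderm and 0 in hESC, and an L1PA6 copy 11.9 and 1.46 RPM.

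L1PA3 copies of at least 5 kb had 6.97 and 17.0 RPM in hESC, 38.0, 35.8 and 45.6 RPM in control endoderm and 42.6, 71.8 and 68.2 RPM in CRISPRi endoderm. Every endoderm library was above both hESC libraries. L1PA4 copies of at least 5 kb had 5.01 and 7.67 RPM in hESC, 19.5, 19.3 and 24.1 RPM in control endoderm and 22.7, 39.0 and 32.4 RPM in CRISPRi endoderm, again without overlap. In edgeR's quasi-likelihood test with Benjamini-Hochberg adjustment over all names by length class, the log2 fold change from hESC to control endoderm was 1.84 ± 0.34 (SE, adjusted p = 1.94e-06) for long L1PA3 and 1.81 ± 0.34 (adjusted p = 3.48e-06) for long L1PA4. Short L1PA4 copies rose by a log2 fold change of 0.97 ± 0.32 (edgeR, adjusted p = 0.0194), and short L1PA3 copies stood at 0.65 ± 0.32 (edgeR, adjusted p = 0.143). Thus 3 of 16 classes were called, against 19% of the 1137 classes of all TE names. By name, over both lengths, 2 of 8 were called, L1PA3 at 1.25 ± 0.31 and L1PA4 at 1.27 ± 0.31 (edgeR, adjusted p = 0.00151 and 0.00129), against 15.7% of all names. The median log2 fold change was 0.10 over the 8 names and -0.29 over all names.

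The youngest elements did not pass the test. L1HS copies of at least 5 kb had 2.29 and 6.69 RPM in hESC and 2.39, 4.60 and 3.54 RPM in control endoderm. The hESC values enclosed those of endoderm, and the log2 fold change was -0.25 ± 0.35 (edgeR, adjusted p = 0.658). The 100 long L1HS copies outside exons with both frames intact had 0.552 and 2.48 RPM in hESC and 0.763, 2.28 and 1.40 RPM in control endoderm. L1PA2 copies of at least 5 kb had 7.82 and 20.6 RPM in hESC and 10.0, 17.8 and 13.6 RPM in control endoderm, at a log2 fold change of 0.06 ± 0.32 (edgeR, adjusted p = 0.912). In both subfamilies the hESC replicates lay further apart than the group means.

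**Figure D2:**
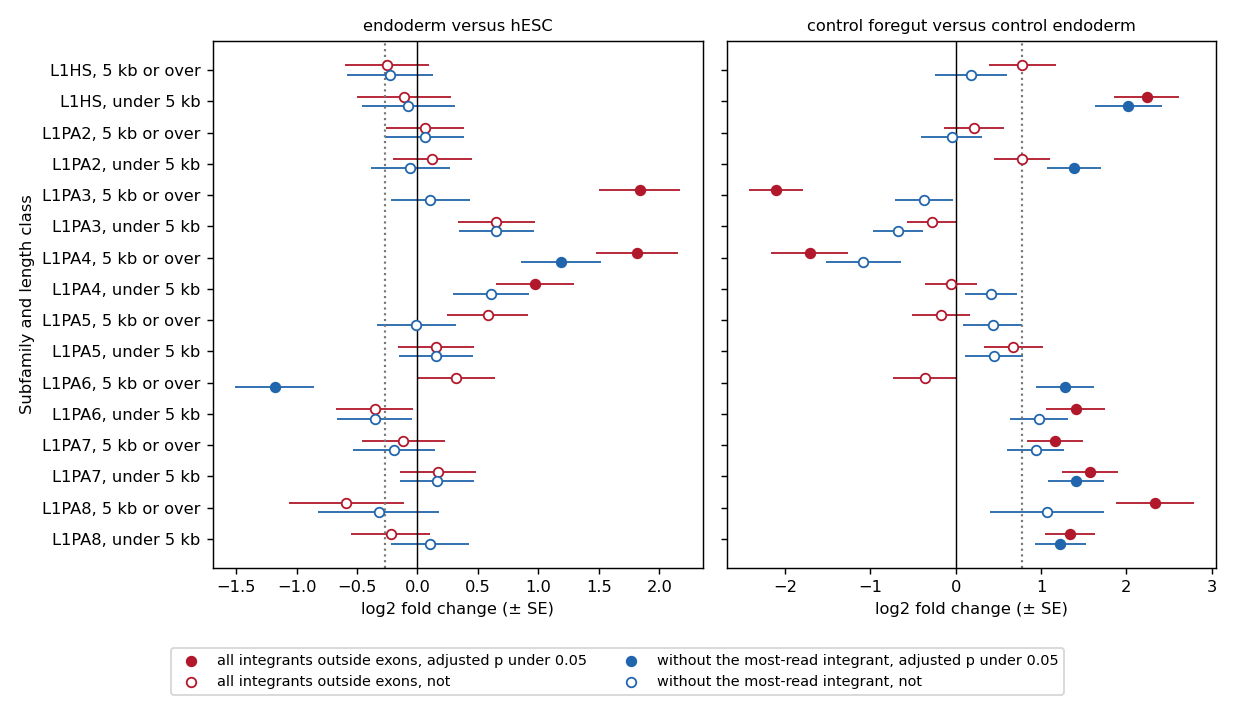
Log2 fold change ± SE (edgeR) of each subfamily and length class in endoderm against hESC and in control foregut against control endoderm, over all integrants outside exons (red) and without the most-read one (blue), with filled points at adjusted p under 0.05 and a dotted line at the median of all TE names by length class. In endoderm against hESC, long L1PA3 moves from 1.84 to 0.11 and long L1PA4 from 1.81 to 1.19 without the most-read copy.

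The step in L1PA3 rested on a single locus. An L1PA3 copy of 5840 bp at chr6:87441115-87446954 (GRCh37, plus strand) lies between genes, 200292 bp from HTR1E, which codes for a serotonin receptor. Its reads numbered 0 and 0 in hESC, 575, 457 and 540 in control endoderm, 526, 1079 and 570 in CRISPRi endoderm, 0 and 0 in control foregut, and 11 and 0 in CRISPRi foregut. It was at 27.8 ± 6.01 RPM (SD, n = 3) in control endoderm, at least 420-fold higher than in hESC, where the bound takes 3 counts over the group for the zeros (edgeR, adjusted p = 1.74e-43). This copy held 59.4% to 76.9% of the reads of long L1PA3 in the 6 endoderm libraries. Without it the log2 fold change of long L1PA3 was 0.11 (edgeR, adjusted p = 0.860), and that of L1PA3 as a whole 0.46 (adjusted p = 0.315). Some 62.7% of its 75-base windows were single among members. Its blastn alignment to the reference copy begins at base 40 of that copy, which need not be where the element itself begins. A further L1PA3 copy, at chr6:87279292-87285438 on the same chromosome, also between genes and nearest to HTR1E, had no read in hESC or foregut and 17, 20 and 23 reads in control endoderm (edgeR, adjusted p = 9.21e-07); it was singled out after its values were seen.

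The rise of L1PA4 rested on copies within genes, and on more than 1 of them. Over copies outside gene bodies alone, long L1PA4 was at 0.46 and L1PA4 as a whole at 0.42 on the log2 scale (edgeR, adjusted p = 0.520 and 0.455). Its most-read long copy, of 6119 bp at chr3:129879285-129885403 (minus strand), lies in an intron of LINC02021, a long noncoding RNA, in antisense orientation. It had 0 and 1 reads in hESC, 138, 126 and 153 in control endoderm, 148, 352 and 125 in CRISPRi endoderm and none in the 4 foregut libraries. The ratio of control endoderm to hESC was 334, with a 95% exact interval of 59.6 to 13218 from the counts (edgeR, adjusted p = 7.43e-23). LINC02021 itself rose by a log2 fold change of 2.99 ± 0.41 (edgeR, adjusted p = 3.35e-05). The copy held 30.3% to 46.0% of the reads of long L1PA4 in endoderm. Without it, long L1PA4 was still higher in endoderm, at a log2 fold change of 1.19 (edgeR, adjusted p = 0.00497). Short L1PA4 without its own most-read copy was at 0.61 and no longer called (edgeR, adjusted p = 0.172), and its call was also lost without control endoderm replicate 2 (0.93) or 3 (0.98) or without hESC replicate 1 (0.75).

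Among single integrants, 50 of the 972 members with at least 3 reads in a library of this comparison were called at adjusted p under 0.05 and more than 2-fold (edgeR), 37 higher and 13 lower in endoderm. This is 5.14%, against 3.78% of all 31441 integrants tested, and the members' median log2 fold change was -0.16 against -1.41 over all. Since a member silent in 1 group passes the filter only through the other, these counts describe and do not support a shift. Of the 37 that rose, 13 were L1PA4 and 8 were L1PA3, with 5 L1PA5, 4 L1PA6, 3 L1PA7, 2 L1PA8, 1 L1PA2 and 1 L1HS. At least 5 kb was spanned by 13, and 8 of these held the YY1 core motif, where 50.2% to 91.5% of all such members did by subfamily. Genes held 20 of the 37, 11 in sense and 9 in antisense orientation, and the other 17 lay between genes. Gene bodies held 52.0% of all members. The host could be tested for 12 copies and rose as well for 11 (edgeR, adjusted p under 0.05), a gene counting once per copy. The share of all genes that rose at this limit was not taken. No read in hESC was counted for 21 of the 37, and 27 had no read in any foregut library. The same shares over all members were not taken.

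Long copies of L1PA5 and L1PA6 were called as well. The L1PA5 copy of 6156 bp at chr4:171128259-171134414 (plus strand), between genes, 13272 bp from LINC01612 and with AADAT as its nearest coding gene, had 3 and 0 reads in hESC, 52, 71 and 34 in control endoderm, 28, 94 and 87 in CRISPRi endoderm and none in foregut. Its ratio of endoderm to hESC was 41.9 with a 95% exact interval of 14.1 to 205 (edgeR, adjusted p = 5.39e-10). The L1PA6 copy of 6080 bp at chr4:69285972-69292051 (plus strand), between genes and 21130 bp from TMPRSS11E, which codes for a transmembrane serine protease, had 8 and 58 reads in hESC, 147, 332 and 209 in control endoderm, 67, 244 and 140 in CRISPRi endoderm and none in foregut. Its log2 fold change was 3.15 ± 0.47 (edgeR, adjusted p = 4.63e-09). The L1PA6 class as a whole did not show this. Long L1PA6 was at a log2 fold change of 0.32 with this copy (edgeR, adjusted p = 0.521). It fell by 1.18 without it (adjusted p = 0.00484). Part of that fall came from a single other long copy, at chr8:73968585-73974141. That copy had 73 and 223 reads in hESC and 7, 15 and 8 in control endoderm. A fall of long L1PA6 without both copies was not tested.

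Some of the copies that rose lie within genes that rose. An L1PA3 fragment of 1110 bp at chr9:101082168-101083277, antisense in an intron of GABBR2, a subunit of the GABA-B receptor, had no read in hESC and 150, 69 and 41 reads in control endoderm, at least 69.4-fold higher. GABBR2 rose by a log2 fold change of 3.01 (edgeR, adjusted p = 0.00081). An L1PA8 fragment of 432 bp at chr2:224865251-224865682, in sense in an intron of SERPINE2, a serine protease inhibitor, had no read in hESC and 62, 26 and 47 reads, at least 36.0-fold higher. SERPINE2 rose by 4.76 on the log2 scale (edgeR, adjusted p = 6.87e-08). An L1PA3 copy of 3595 bp at chr2:217188103-217191697, antisense in MARCHF4, a membrane-bound ubiquitin ligase gene, had no read in hESC and 13, 44 and 31 reads, at least 23.5-fold higher, and MARCHF4 rose by 2.33 (edgeR, adjusted p = 0.000311). It is not stated whether reads were counted by strand, so that reads of an intronic copy and of unspliced host RNA cannot be told apart. Between genes, an L1PA5 copy of 4868 bp at chr2:82143748-82148615 had no read in hESC and 10, 35 and 30 reads in control endoderm. An L1PA4 copy of 5628 bp at chr11:87657286-87662913, in sense in a long noncoding RNA gene without a symbol, had no read in hESC and 24, 33 and 19 reads, at least 20.3-fold higher. The adjusted p of these 5 copies lay between 6.93e-19 and 4.85e-08 (edgeR).

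Of the 13 members lower in endoderm, 12 lay in genes, where gene bodies held 52.0% of all members. The host could be tested for 8 copies and fell as well for 5, a gene counting once per copy. The share of all genes that fell was not taken. The clearest was an L1PA6 copy of 5557 bp at chr8:73968585-73974141 (plus strand), in sense in a long noncoding RNA gene. It had 73 and 223 reads in hESC, 7, 15 and 8 in control endoderm and 1, 6 and 2 in CRISPRi endoderm. Its log2 fold change was -3.53 ± 0.50 (edgeR, adjusted p = 3.85e-10), and that of its host -3.58 ± 0.87 (adjusted p = 0.00392). In foregut it had 14 and 0 reads in the controls and 21 and 0 with CRISPRi.

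The second comparison, CRISPRi against control in endoderm, asks whether L1 elements move when LTR5 is repressed. None of the 8 subfamily names (0.0985% of all names) and none of the 16 length classes (0.0893% of all classes) was called. All members stood at 301 ± 98.4 RPM (SD, n = 3) with CRISPRi and 229 ± 11.7 RPM (SD, n = 3) in controls, a log2 ratio of 0.39 (2-sided exact permutation test, p = 0.4). The groups overlapped, since CRISPRi replicate 1 was lower than every control. By name the log2 fold changes ran from -0.02 ± 0.40 for L1HS to 0.59 ± 0.36 for L1PA2, with a median of 0.38 against 0.30 over all names, and no adjusted p was below 0.824 (edgeR). None of the 8 names, and 3 of the 16 classes, passed an unadjusted p of 0.05, and DESeq2 and limma voom called 0 of either too.

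A single integrant of 868 tested was called (edgeR, against 0.0254% of all integrants). It is an L1PA2 copy of 4204 bp at chrX:108297821-108302024 (plus strand), between genes and 314111 bp from GUCY2F, a guanylate cyclase gene of photoreceptors. It had 31, 115 and 52 reads in control endoderm and 58, 106 and 338 in CRISPRi endoderm, after 81 and 40 in hESC. The log2 fold change was 1.91 ± 0.41 (edgeR, adjusted p = 0.0161). CRISPRi replicate 3 alone stood apart, and without it the log2 fold change was 0.43 (adjusted p = 0.764). The call was also lost without control replicate 1 (1.57, adjusted p = 0.334) or 3 (1.90, adjusted p = 0.329). In that library the copy held 76.3% of the reads of short L1PA2. Only 19.1% of its 75-base windows were single among members.

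The copies that rose in endoderm were read in CRISPRi endoderm too. Of the 37, 32 had a read in every CRISPRi endoderm library. The 37 were called for their reads in control endoderm, and the same share over all members was not taken. For the L1PA3 copy on chromosome 6, the log2 fold change of CRISPRi over control was 0.71 ± 0.37 (edgeR, adjusted p = 0.635), and for the L1PA4 copy in LINC02021 it was 0.76 ± 0.39 (adjusted p = 0.635). Neither passed the test, and their replicates overlapped between the groups.

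In foregut, CRISPRi against control gave no call either. All members had 332 ± 77.4 RPM (SD, n = 2) with CRISPRi and 273 ± 62.1 RPM (SD, n = 2) in controls, a log2 ratio of 0.28 (2-sided exact permutation test, p = 0.667, where the design allows no p under 0.33). None of the 8 names and none of the 16 classes was called (edgeR, against 0% of all names and 0% of all classes), and none passed an unadjusted p of 0.05. DESeq2 and limma voom called 0 of either too. Of 1170 integrants 0 were called (edgeR, against 0.00595% of all integrants), with 1 at an unadjusted p under 0.05. DESeq2 called 0 integrants and limma voom 7. Long L1HS had 6.40 and 5.57 RPM in control and 7.75 and 9.08 RPM in CRISPRi foregut, and long L1PA2 had 18.0 and 13.6 RPM in control and 30.1 and 26.2 RPM in CRISPRi foregut. Both were higher in each CRISPRi library, at log2 fold changes of 0.50 ± 0.66 and 0.87 ± 0.53 (edgeR, adjusted p = 0.987 for both). Long L1PA3, long L1PA6 and long L1PA7 were higher in each as well. The median log2 fold change was 0.40 over the 16 classes and 0.32 over all classes, so these values stand beside a general shift. The long L1HS copies outside exons with both frames intact had 0.613 and 0.834 RPM in control and 3.52 and 7.11 RPM in CRISPRi foregut, and those without both had 5.79 and 4.74 RPM in control and 4.24 and 1.97 RPM in CRISPRi foregut. Neither pair of groups overlapped, these 2 sets were not fitted, and they were singled out after their values were seen. The difference of the CRISPRi effect between foregut and endoderm was tested by name as an interaction. None of the 8 names was called (edgeR, against 0.188% of all names), the smallest unadjusted p being 0.400, for L1PA3.

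The last comparison sets control foregut against control endoderm. Foregut was made by another protocol than these endoderm libraries, so stage and protocol cannot be told apart here. The comparison shares its endoderm libraries with the first, so that a copy high in those libraries is drawn to opposite signs in the 2. All members stood at 273 ± 62.1 RPM (SD, n = 2) in foregut and 229 ± 11.7 RPM (SD, n = 3) in endoderm (log2 ratio 0.25, 2-sided exact permutation p = 0.3). The log2 ratio was 0.59 without the 10 most-read members and 0.47 with mitochondrial genes left out of the library size, and in both cases the groups did not overlap (exact permutation p = 0.1). Outside gene bodies the sign turned, with 70.5 ± 9.22 RPM in foregut and 102 ± 10.1 RPM in endoderm, a log2 ratio of -0.53 (exact permutation p = 0.1). Members in gene bodies thus took a larger share in foregut than in endoderm. In foregut 24.3% to 29.1% of member reads lay outside gene bodies, against 41.9% to 50.1% in the 6 endoderm libraries. The hESC libraries, at 28.1% and 30.5%, lay near the foregut values.

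By name, L1HS, L1PA7 and L1PA8 were higher in foregut and L1PA3 was lower, 4 of 8 called against 28.8% of all names (edgeR). The log2 fold changes were 1.45 ± 0.36 for L1HS (adjusted p = 0.0113), 1.51 ± 0.32 for L1PA7 (0.00495), 1.46 ± 0.30 for L1PA8 (0.00425) and -1.10 ± 0.30 for L1PA3 (0.0183), where the median over all names was 0.78. Relative to that median the L1HS, L1PA7 and L1PA8 differences were smaller, and the median moved to 0.60 with all TE reads as library size, 0.44 with limma voom and 0.33 outside gene bodies. Outside gene bodies L1HS stood at 0.51 and L1PA7 at 0.91, neither called (edgeR, adjusted p = 0.573 and 0.0954), and L1HS was not called without control endoderm replicate 3 (1.49, adjusted p = 0.0615). L1PA3 was not called without its most-read copy (-0.31, adjusted p = 0.465), nor without any 1 of the control endoderm libraries (-1.10 to -1.04, adjusted p = 0.0743 to 0.123). L1PA7 copies under 5 kb had 21.4, 18.3 and 21.1 RPM in control endoderm and 73.1 and 44.9 RPM in control foregut, and 94.0 and 48.6 RPM in CRISPRi foregut. No foregut library overlapped with endoderm in this class.

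By length, 8 of 16 classes were called, against 27.3% of all classes (edgeR). Long L1PA3 fell to 9.44 and 8.94 RPM (log2 fold change -2.11 ± 0.32, adjusted p = 0.00172) and long L1PA4 to 8.92 and 3.55 RPM (-1.71 ± 0.45, adjusted p = 0.0199), beside 6.97 and 17.0 RPM and 5.01 and 7.67 RPM in hESC. Short L1HS had 1.32, 2.18 and 1.89 RPM in control endoderm and 9.13 and 7.72 RPM in control foregut, a log2 fold change of 2.24 ± 0.38 (adjusted p = 0.00294). Long L1HS stood at 0.78 ± 0.39 (adjusted p = 0.170). The other classes called were short L1PA6, both L1PA7 classes and both L1PA8 classes, at log2 fold changes of 1.16 to 2.34, with long L1PA7 at 1.16 but at -0.25 when only copies outside gene bodies were summed. Each class was also fitted without its most-read copy. Then long L1PA3 was at -0.37, long L1PA4 at -1.08, short L1PA6 at 0.97, long L1PA7 at 0.94 and long L1PA8 at 1.07, none of them called (edgeR, adjusted p = 0.0615 to 0.44), while long L1PA6 (1.28) and short L1PA2 (1.39) were called. Over copies outside gene bodies alone, short L1HS (1.51), long L1PA4 (-0.13) and long L1PA8 (0.75) were not called (edgeR, adjusted p = 0.251, 0.884 and 0.814). Leaving out 1 control endoderm library ended the call of short L1PA6 and long L1PA7 in each case, of long L1PA4 for replicate 1 or 3 and of short L1PA8 for replicate 2 or 3, with log2 fold changes of -1.73 to -1.58 for long L1PA4 and 1.14 to 1.47 for the others.

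Among integrants, 66 of 1187 were called (edgeR, against 5.27% of all integrants tested), 40 higher and 26 lower in foregut. The members' median log2 fold change was 2.35, against 4.08 over all integrants. Of the 40, 33 lay in genes, 28 of them in sense. Gene bodies held 52.0% of all members, and the share in sense over all members was not taken. The host could be tested for 27 copies, a gene counting once per copy. It changed the same way for 7, the opposite way for 6 and did not pass the test for 14 (edgeR, adjusted p under 0.05). The share of all genes that changed at this limit was not taken. L1PA7 gave 12 of the 40. All 10 copies of at least 5 kb among the 40 held the YY1 core motif, as did 8 of the 10 such copies that fell. Over all members of at least 5 kb the share was 50.2% to 91.5% by subfamily, so these counts do not set the called copies apart. Of the 26 that fell, 11 were L1PA4 and 6 were L1PA3, and 21 had no read in either control foregut library. The same share over all members was not taken, and control foregut libraries detected 571 and 530 members, against 1137, 1288 and 1074 in control endoderm.

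Of the 37 copies higher in endoderm than in hESC, 27 had no read in foregut and 10 had some. The same share over all members was not taken. Foregut libraries detected 206 to 683 members outside exons and endoderm libraries 710 to 1493, so the count alone does not set these copies apart. The L1PA3 copy on chromosome 6 was at least 635-fold lower in control foregut, the L1PA6 copy near TMPRSS11E at least 278-fold, the L1PA4 copy in LINC02021 at least 168-fold, the L1PA3 fragment in GABBR2 at least 105-fold and the L1PA5 copy near AADAT at least 63.4-fold (edgeR, adjusted p from 1.40e-26 to 1.28e-10). An L1PA5 copy of 3476 bp at chr4:11103783-11107258, between genes, had 62, 112 and 61 reads in control endoderm and none in control foregut (edgeR, adjusted p = 3.90e-14). It was also higher in endoderm than in hESC, where it had 17 and 41 reads. An L1PA4 copy of 3887 bp at chr8:8014485-8018371 had 19 and 32 reads in hESC, 168, 177 and 108 in control endoderm and 1 and 0 in control foregut. The ratio of endoderm to foregut was 549 with a 95% exact interval of 98.1 to 21736. Only 15.7% of its 75-base windows were single, and a copy of the same length at chr8:12362313-12366199, which overlaps an exon, had 26 and 37, then 235, 172 and 184, then 0 and 0 reads in the same groups, so that reads of this pair are of uncertain origin.

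Other copies were read in foregut alone or nearly so. An L1PA6 fragment of 843 bp at chr1:173648947-173649789, between genes, had 255 and 158 reads in control foregut, 111 and 80 in CRISPRi foregut and 1 read in all other libraries, at least 114-fold higher in control foregut than in control endoderm (edgeR, adjusted p = 2.58e-19). An L1PA3 fragment of 1049 bp at chr1:187602278-187603326, in sense in LINC01036, had 182 and 176 reads in control foregut, 123 and 46 in CRISPRi foregut and 2 reads elsewhere, at least 98.4-fold higher (edgeR, adjusted p = 2.21e-17). An L1PA7 copy of 3771 bp at chr4:87108936-87112706, in sense in an intron of MAPK10, the JNK3 kinase gene, had 3, 4 and 0 reads in control endoderm, 250 and 202 in control foregut and 544 and 100 in CRISPRi foregut. Its log2 fold change was 5.78 ± 0.75 (edgeR, adjusted p = 2.76e-12). MAPK10 as a whole stood at 0.62 ± 0.23 (edgeR, adjusted p = 0.0714). The adjoining L1PA7 copy at chr4:87112746-87115354, which overlaps an exon of MAPK10, had 263 and 266 reads in control foregut and 3, 3 and 1 in control endoderm. A long L1PA2 copy at chr4:86991544-86997572, in sense in the same gene, had 96 and 91 reads against 1, 2 and 0 (edgeR, adjusted p = 7.66e-07), and was singled out after its values were seen.

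Further copies among the most read followed this pattern. An L1PA5 fragment of 706 bp at chr3:149666829-149667534, in an intron of ANKUB1, had 1, 4 and 6 reads in control endoderm and 226 and 110 in control foregut, at a log2 fold change of 4.64 ± 0.75 (edgeR, adjusted p = 4.82e-08). It could not be aligned to the reference L1HS. An L1PA5 copy of 3188 bp at chr2:187260483-187263670, in sense in LINC01473, had 6, 7 and 2 reads in control endoderm and 105 and 96 in control foregut (log2 fold change 3.52 ± 0.81, edgeR, adjusted p = 0.00063), while LINC01473 stood at -0.07 ± 1.55 (edgeR, adjusted p = 0.974).

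Of the 3 most-read L1HS copies of at least 5 kb, none kept both open reading frames. The first, of 6031 bp at chr7:65751841-65757871 (minus strand), lies antisense in an intron of TPST1, a tyrosylprotein sulfotransferase gene. It had 4 and 4 reads in hESC, 1, 2 and 2 in control endoderm, 0, 4 and 3 in CRISPRi endoderm, 68 and 82 in control foregut and 45 and 0 in CRISPRi foregut. Its log2 fold change from endoderm to foregut was 4.54 (edgeR, adjusted p = 0.000273), whereas TPST1 stood at -0.93 ± 0.26 (adjusted p = 0.0211, under 2-fold). Only 4.55% of its 75-base windows were single. The second, of 5282 bp at chrX:125319954-125325235 (minus strand), between genes and nearest to DCAF12L2, had no read in hESC, 12, 9 and 9 in control endoderm, 0, 7 and 3 in CRISPRi endoderm, 33 and 24 in control foregut and none in CRISPRi foregut. It was at least 8.01-fold higher in control endoderm than in hESC (edgeR, adjusted p = 0.00154), and the CRISPRi comparisons did not call it (adjusted p = 0.635 and 0.660). The third, of 6049 bp at chr16:54076009-54082057 (plus strand), in sense in FTO, an RNA demethylase gene, had 6 and 7 reads in hESC, 1, 6 and 2 in control endoderm and 33 and 14 in control foregut, and was called in no comparison.

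Members that overlap exons were left out of the tests, since their reads may belong to the exon, and held 13.9% of member reads. Besides the copies on chromosome 8 and in MAPK10, the most-read was an L1PA3 copy of 6103 bp at chr19:20990531-20996633, over an exon of ZNF66. It had 48 and 219 reads in hESC, 46, 84 and 71 in control endoderm, 24 and 93 in control foregut and 18 and 0 in CRISPRi foregut, with replicates that spread as widely as the groups.

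Genes known to act on L1 were read beside the elements, from a list of 40 of which 39 were measured. L1TD1, an RNA-binding protein descended from an L1 ORF1 and a mark of pluripotent cells, had 199 and 326 CPM in hESC, 97.8, 138 and 127 CPM in control endoderm and 7.38 and 3.71 CPM in control foregut. It fell at both steps, by log2 fold changes of 1.03 ± 0.21 and 4.42 ± 0.40 (edgeR, adjusted p = 0.0012 and 6.6e-05). From hESC to endoderm, 7 of 39 genes rose and 7 fell more than 2-fold, against 26% of all genes called either way. All 4 APOBEC3 genes of the list, cytidine deaminases that restrict retroelements, were among those that rose, from APOBEC3B at a log2 fold change of 2.98 to APOBEC3G at 9.07, the latter from 0.297 and 0 CPM in hESC to 74.5, 73.5 and 93.4 CPM. ZNF382, TET2 and RUNX3 rose as well. DNMT3B, a de novo DNA methyltransferase, fell by 2.45, SAMHD1, which depletes nucleotides needed for reverse transcription, by 3.78, and ZNF93, a KRAB zinc finger protein that binds L1PA elements, by 1.02, beside SOX2, SOX11 and MORC2.

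From endoderm to foregut 4 of 37 list genes rose and 13 fell, against 29% of all genes. SOX2 and SOX11, known regulators of the L1 promoter, rose by 2.84 and 3.52, with SAMHD1 and TREX1. DNMT3B fell by 3.43, TET1 by 2.98, ZNF649 by 2.44, ZNF93 by 2.25 and APOBEC3G by 4.9. The others that fell were L1TD1, ATF7IP, ZNF248, DNMT1, RUNX3, ZC3HAV1, APOBEC3C and APOBEC3F. With CRISPRi no list gene was called, 0 of 37 in endoderm against 0.0343% of all genes and 0 of 36 in foregut against 0.165% (edgeR). The calls on these genes and on the elements were made in the same libraries, and a link between them was not tested.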

How the data were processed

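The authors aligned bulk poly(A) RNA reads, kept those mapped uniquely and deposited counts per gene and per TE integrant in GRCh37 coordinates. The deposited counts are raw, and their TE counting strand is not given in the sources used here. Groups followed the sample titles, which for the foregut libraries go against their other labels. Members and gene lists were chosen with earlier results of these data known. Members overlapping GENCODE exons were set apart. Integrants, sums by name and sums by name and length (limit 5 kb) were fitted over all TEs with at least 3 reads in a library, with edgeR 4.0.16 (quasi-likelihood), gene library sizes and TMM factors, and Benjamini-Hochberg adjustment. An integrant with several names counted for each. Integrants and genes were called at adjusted p under 0.05 and over 2-fold, sums at adjusted p under 0.05. Summed levels were compared by 2-sided exact permutation. Alternatives used DESeq2 1.42.0, limma 3.58.1 (voom), other library sizes, filters and left-out libraries. Orientation and identity came from blastn 2.17.0. The scripts were tested on simulated data. Text names at most 10 called members per comparison (smallest p), the 10 most read, 3 long L1HS, 3 exon-overlapping members, and list genes called. Depth was 11583063 to 37152434 gene reads per library. Some sequences are not reported here.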

Additional observations from a re-analysis of the deposited data

How the results depend on the processing

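In endoderm against hESC, 50 integrants were called, 29 with limma voom, 81 with at least 10 reads in total, 31 with a replicate block and 32 to 47 leaving out a replicate. Names called fell from 2 to 1 without the most-read integrant, and classes rose from 3 to 5 with a length limit of 6 kb. For CRISPRi in endoderm the 1 integrant called became 0 with DESeq2, with all TE reads as library size, with no filter, with single-name integrants and with the replicate block. Leaving out a replicate gave 0 to 1 integrants, and 0 to 1 classes against 0: short L1PA2 was called without CRISPRi replicate 1. For CRISPRi in foregut limma voom called 7 integrants against 0, and the log2 ratio over all members turned from 0.28 to -0.077 with all TE reads as library size. In foregut against endoderm, 66 integrants were called, 33 with no filter, 15 with the replicate block and 35 to 361 leaving out a replicate. The highest counts, 282 and 361, came without control foregut replicate 1 and 2, where the single foregut library left is assumed to vary like endoderm. Names called were 2 outside gene bodies against 4, and 2 to 6 leaving out a replicate. Classes called were 5 outside gene bodies, 5 without the most-read integrant and 4 to 11 leaving out a replicate, against 8. Outside gene bodies long L1PA7 turned from 1.16 to -0.25, and all members from 0.25 to -0.53. Leaving out a replicate gave -0.000927 to 0.467 for all members. The causes were not tested. Of 257 values for whole comparisons under an alternative, 224 counted as kept, 30 as moved and 3 as turned. A count was kept within a set ratio, also where 0 stayed 0. A log2 ratio was kept at any size of the same sign, such as 0.47 falling to 0.07 for endoderm against hESC. The tally is therefore no measure of how stable the sizes are. Of 696 values for named features, 632 kept direction and call, 63 lost their call and 1 turned. By tool, 28 members in endoderm against hESC and 46 in foregut against endoderm were called by all 3 tools. No label ties replicate numbers to a shared source, and deviations of same-numbered libraries correlated between -0.21 and 0.18, so the block was not used. For the 2 by 2 foregut libraries (correlation -0.21), a crossed pairing as block called 0 integrants, names and classes, as did the unblocked fit. Leaving out the most-read integrant, the crossed pairing, and the left-out replicates for genes were chosen after seeing the data. Depth limits single members: most hold few reads, and L1HS and L1PA2 have few windows that a unique read can reach.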
